A study of Mus musculus with 4 samples.

Results

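The genes described here encode the protein subunits of the mitochondrial ribosome and carry symbols that begin with Mrpl or Mrps and a number. The rule took every row of the gene table with such a symbol, which gave 74 genes of 10716, namely 45 Mrpl genes of the large subunit and 29 Mrps genes of the small subunit. The rule used the symbol only and no measured value, but earlier results of these data were known when the genes were chosen. All 74 had more than 100 counts in every library.

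The mitochondrial ribosome is built inside the organelle from RNAs made there and from proteins that are encoded in the nucleus, made in the cytosol and imported. It translates the few messenger RNAs of mitochondrial DNA, which code for core subunits of the respiratory chain and of ATP synthase. Some of its proteins descend from bacterial ribosomal proteins, and others exist in mitochondria alone. In erythroid cells the mitochondrion also carries out the first and last steps of haem synthesis and the assembly of iron-sulphur clusters, and it is removed as the red cell matures.

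Sequencing covered RNA of erythroid cells sorted by flow cytometry from C57BL/6 fetal livers (embryonic day 14.5), as YFP-positive cells with the R26eYFP reporter in all 4 libraries. The knockout group, KO, held 2 libraries (replicates 1 and 2), described as Epor-ADAR knock out, with the genotype field Epor-Adar / +, which does not say whether one or both Adar alleles were lost. The wild-type group, WT, held 2 libraries (replicates 3 and 8), and the labels do not say whether these embryos carried Cre. In the KO group Cre recombinase driven by the erythropoietin receptor gene acts on Adar, which encodes the adenosine deaminase ADAR1, so the comparison asks how erythroid transcripts differ when Adar is deleted. Nothing in the labels says whether each library came from a separate embryo, so each p-value rests on the spread between libraries, which may be technical.

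Total counts ran from 28356401 to 44016809 per library. Adar had 67.1 and 102 CPM (a count scaled by the effective library size) in KO and 50.9 and 46.9 CPM in WT, with a log2 fold change of 0.79 (SE 0.25, edgeR adjusted p = 0.377). Without KO replicate 1 it was 1.06 (SE 0.16, edgeR adjusted p = 0.013) and Adar was called higher in KO. The KO libraries thus did not have the lower gene-level count, which does not tell the exons of an allele apart. Y-linked genes were at odds with the labelled sex of 3 libraries. KO replicate 1 lay farther than KO replicate 2 from the WT mean in 8864 of the 10716 genes. All 10 erythroid markers were in the table, with summed levels of 70195 and 70799 CPM in KO and 100435 and 66414 CPM in WT. Most of each sum came from Hba-a1, Hbb-b1 and Slc4a1. The median difference of the 10 markers from the WT mean was -0.38 and -0.11 log2 CPM in KO and 0.25 and -0.25 in WT. Their log2 fold change was below 0 in 8 and above 0 in 2. Klf1, chosen after its values were seen, had 204 and 520 CPM in KO and 689 and 533 CPM in WT.

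Markers of other cells differed between the libraries, several lists with the groups or with KO replicate 1. Those of macrophages (8 of 11 in the table) summed to 8.35 and 18.2 CPM in KO and 44.4 and 20.8 CPM in WT, and those of megakaryocytes (9 of 10) to 192 and 118 CPM in KO and 67.4 and 98.0 CPM in WT. Those of neutrophils (8 of 10) summed to 315 and 39.0 CPM in KO and 42.5 and 47.1 CPM in WT, those of hepatoblasts (6 of 10) to 49.7 and 56.7 CPM in KO and 106 and 41.2 CPM in WT, where WT replicate 3 stood apart, and those of endothelial cells (5 of 6) to 27.7 and 32.2 CPM in KO and 14.0 and 12.5 CPM in WT. Of the stem and progenitor list 2 of 8 were in the table (77.4 and 39.1 CPM in KO, 37.7 and 34.1 CPM in WT), and of the lymphoid list 1 of 8, Ptprc (9.56 and 1.94 CPM in KO, 2.03 and 1.54 CPM in WT). No marker in the table had a count of 0, and defining markers such as Elane, Siglec1 and Cd3e were not in it. The part of these cells in the results below was not tested. In bulk samples, fewer cells of a type and less RNA per cell cannot be told apart.

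Each of the 74 transcripts was detected at a moderate level, with raw counts from 133 to 5336 per gene and library. Divided by the length of annotated exons, the mean level over the 4 libraries was highest for Mrpl52, a mitochondria-specific protein of the large subunit, at 100.3 CPM per kb. Mrpl32 followed with 70.9 CPM per kb and Mrpl18, a homologue of a bacterial protein of the central protuberance, with 63.2 CPM per kb. Among Mrps genes the highest levels per length were those of Mrps16 (57.1 CPM per kb), Mrps28 (43.6 CPM per kb) and Mrps18c (42.6 CPM per kb).

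At the low end stood Mrps10 with 2.63 CPM per kb and Mrps6 with 3.43 CPM per kb, both homologues of bacterial small-subunit proteins. The lowest Mrpl genes were Mrpl33 (4.81 CPM per kb) and Mrpl47 (5.06 CPM per kb). Mrps10 and Mrpl33 have annotated exons of 8079 and 7473 bases, against a median of 1718.5 bases over the members, and whether these cells use all of them was not tested. Over the 74 genes the median level was 18.7 CPM per kb, beside 7.69 CPM per kb over the 9310 coding genes of the table found in the annotation.

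**Figure D1:**
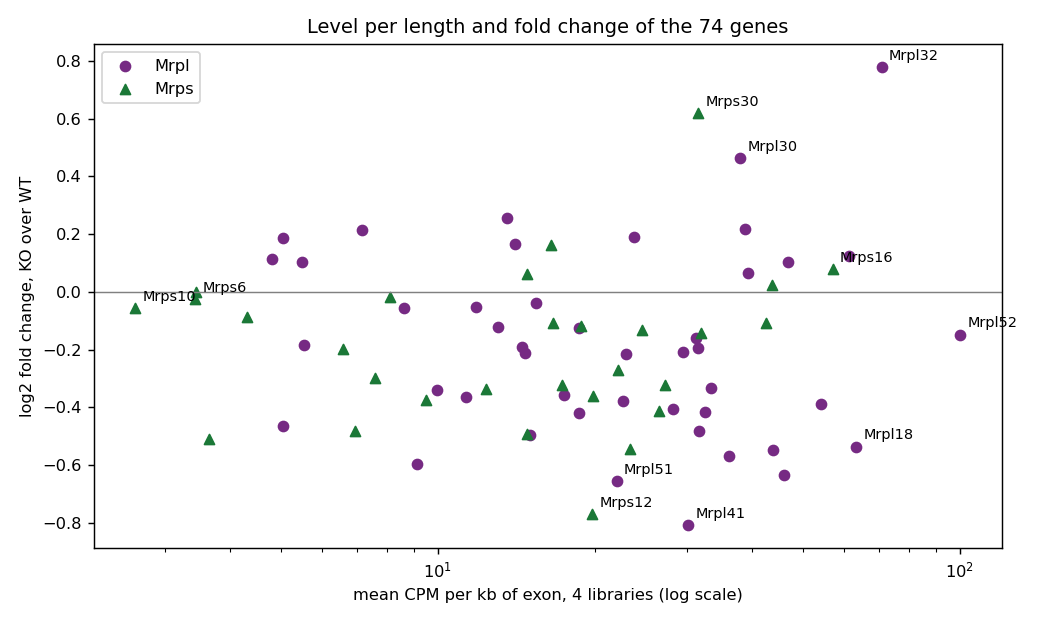
Each point is a gene, with the mean CPM per kb of exon over the 4 libraries on the x axis (log scale) and the log2 fold change of KO over WT on the y axis, Mrpl genes as circles and Mrps genes as triangles. Levels run from 2.63 CPM per kb (Mrps10) to 100.3 CPM per kb (Mrpl52), and most points lie below a fold change of 0.

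Most mitochondrial ribosomal protein genes had somewhat lower levels in KO than in WT, and a few had higher ones. The log2 fold change was below 0 for 56 of the 74 genes (75.7%), with a median of -0.19, a range from -0.81 (Mrpl41) to 0.78 (Mrpl32) and standard errors from 0.18 to 0.41. Over all 10716 genes it was below 0 for 5363, with a median of -0.0008. In 38 of the 74 genes (51.4%) both KO libraries lay below both WT libraries, against 26.7% of all genes, and in 5 (6.76%) both lay above, against 27.4% of all genes.

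No member passed the test. In edgeR's quasi-likelihood test, with p adjusted over the whole table by Benjamini and Hochberg, 0 of the 74 had an adjusted p below 0.05 in either direction, where 0.103% of all genes were called higher and 0% lower. At an unadjusted p below 0.05, 3 members had lower levels (4.05%, against 2.08% of all genes) and 1 had a higher level (1.35%, against 9.82%). The smallest adjusted p among members was 0.419. Each of 3 other tools called 0 members as well. Of all genes, DESeq2 called 3.29% higher and 0.196% lower, the likelihood ratio test 3.09% higher and 0.168% lower, and limma-voom 0.0747% higher and 0% lower. In the authors' deposited table the smallest p among the members was 0.0345, that of Mrps12, and the adjusted p values ran from 0.442 to 0.991.

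**Figure D2:**
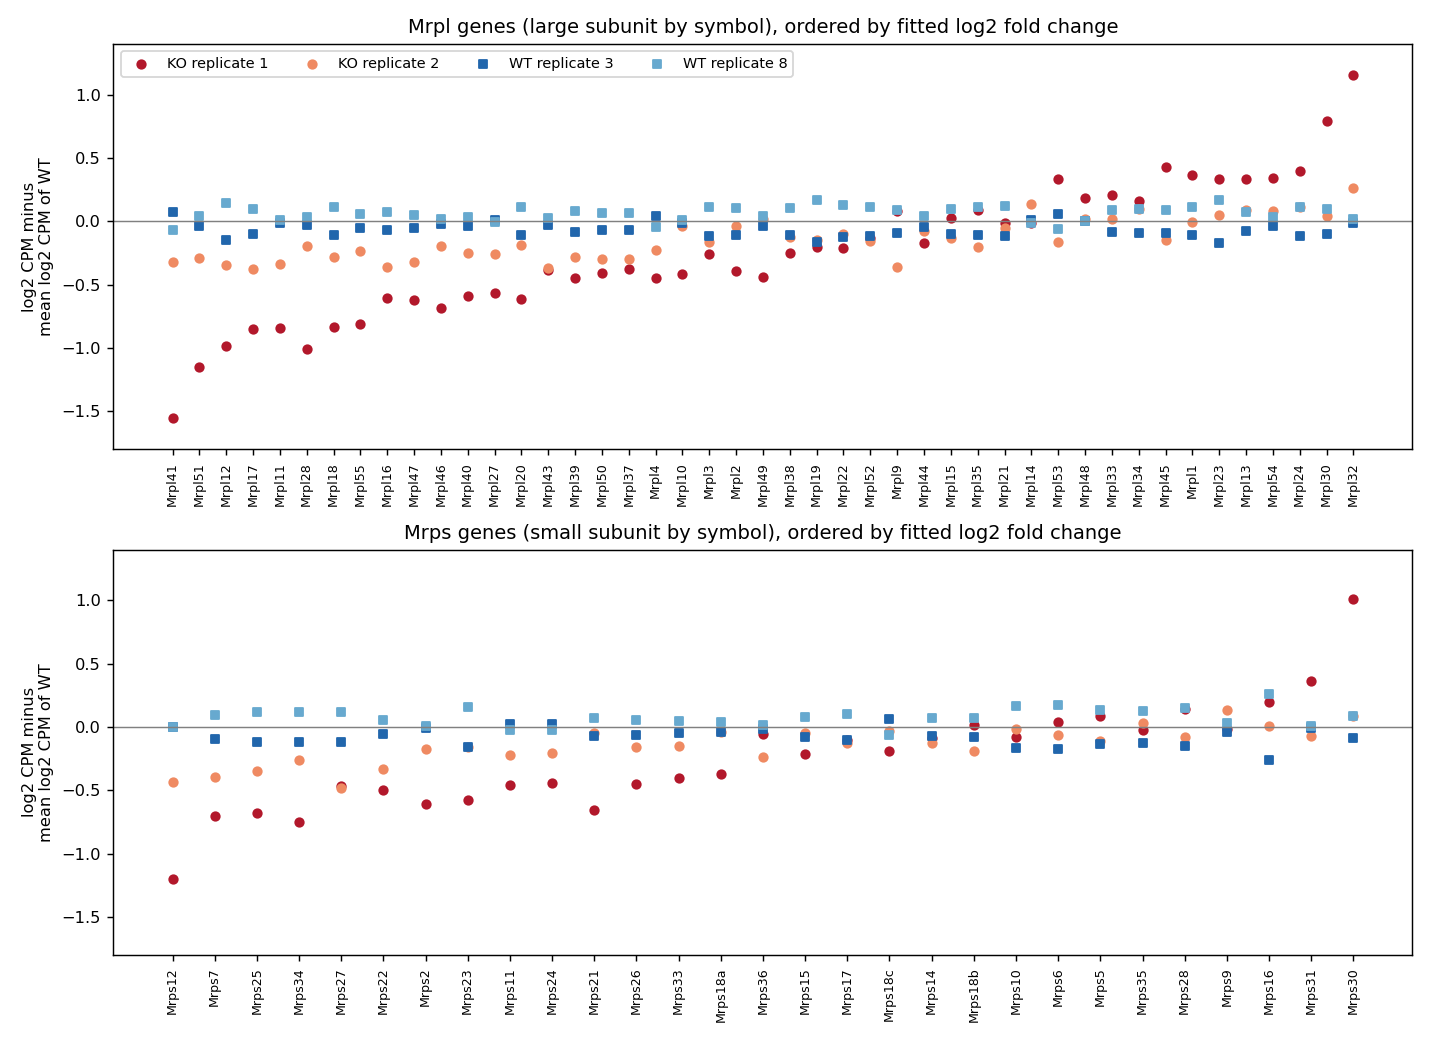
The y axis gives log2 CPM in each library minus the mean log2 CPM of the WT libraries, for the 45 Mrpl genes (top) and the 29 Mrps genes (bottom), ordered by fitted log2 fold change, KO as circles and WT as squares. KO replicate 1 spreads widest, and at the left end KO replicate 2 lies on the same side of the WT libraries with smaller distances.

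The 8 genes with the lowest fold changes were picked by these same values, which favours groups that do not overlap. Both KO libraries lay below both WT libraries in every one, against 26.7% of all genes. Mrpl41, a mitochondria-specific protein of the large subunit, (chr2:24829637-24830618, as all gene positions here on NCBIM37) had 10.1 and 23.9 CPM in KO and 31.3 and 28.3 CPM in WT. KO replicate 1 was the lowest library by far, which gave a log2 fold change of -0.81 (SE 0.41) at an edgeR adjusted p = 0.438. Mrps12, the homologue of the bacterial protein S12 of the decoding centre, (chr7:29524660-29526839) had 11.3 and 19.1 CPM in KO and 25.9 and 25.9 CPM in WT. Its WT libraries nearly coincided while the KO libraries differed, and the log2 fold change was -0.77 (SE 0.30, adjusted p = 0.419). Mrpl51, a mitochondria-specific protein of the large subunit, (chr6:125141819-125145601) had 40.8 and 74.02 CPM in KO and 88.0 and 92.9 CPM in WT, and its log2 fold change was -0.66 (SE 0.30).

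Proteins of the stalk, which recruits translation factors to the large subunit, differed in how far they lay from WT. Mrpl12, the homologue of the bacterial stalk protein L7/L12, had 43.2 and 67.2 CPM in KO and 77.0 and 94.5 CPM in WT, with a log2 fold change of -0.64 (SE 0.27). Mrpl11, at the base of the stalk, had 19.7 and 28.1 CPM in KO and 35.1 and 35.7 CPM in WT (log2 fold change -0.57, SE 0.24). Mrpl10, which anchors Mrpl12, had 31.4 and 41.0 CPM in KO and 41.7 and 42.3 CPM in WT, and KO replicate 2 came within 1 CPM of WT replicate 3. Its log2 fold change was -0.21 (SE 0.22), and it was chosen after its values were seen.

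The other genes at the low end were homologues of bacterial proteins. Mrpl17 had 25.2 and 35.1 CPM in KO and 42.5 and 48.7 CPM in WT (log2 fold change -0.60, SE 0.24), and Mrpl28 had 33.1 and 57.9 CPM in KO and 65.1 and 67.9 CPM in WT (-0.55, SE 0.29). Mrps7, the homologue of a protein of the head of the small subunit, had 35.0 and 43.6 CPM in KO and 53.6 and 60.9 CPM in WT. Its log2 fold change of -0.54 had a standard error of 0.21, and of all members it had the smallest unadjusted p (0.0402, edgeR adjusted p = 0.419). Mrpl18 had 58.4 and 86.0 CPM in KO and 96.6 and 113 CPM in WT (log2 fold change -0.54, SE 0.25), again with no overlap between the groups.

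At the high end stood Mrpl32 (chr13:14702568-14705304), whose protein is matured by the m-AAA protease of the inner mitochondrial membrane before it joins the large subunit. It had 89.5 and 48.1 CPM in KO and 39.6 and 40.5 CPM in WT, means of 68.8 ± 29.3 CPM and 40.1 ± 0.6001 CPM (SD, n = 2 each). Both KO libraries lay above both WT libraries, KO replicate 2 by a small margin. The log2 fold change of 0.78 had a standard error of 0.31 (edgeR adjusted p = 0.419). Afg3l2 and Spg7, which encode subunits of that protease and were chosen by that role, had log2 fold changes of -0.15 (SE 0.18) and 0.01 (SE 0.18).

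Mrps30 and Mrpl30 followed, and their groups overlapped. Mrps30, which sits in the large subunit despite its name (chr13:119168917-119176059), had 79.6 and 41.8 CPM in KO and 37.1 and 41.9 CPM in WT, so that only KO replicate 1 stood above WT (log2 fold change 0.62, SE 0.33). Mrpl30, a homologue of a bacterial protein (chr1:37947322-37955380), had 109 and 64.7 CPM in KO and 58.6 and 67.2 CPM in WT (log2 fold change 0.46, SE 0.28). The next genes had fold changes no larger than about their standard error: Mrpl24 at the rim of the exit tunnel (log2 fold change 0.26, SE 0.22), Mrpl54 (0.22, SE 0.21), Mrpl13 (0.21, SE 0.19), the tunnel protein Mrpl23 (0.19, SE 0.22) and Mrpl1 of the mobile L1 stalk (0.19, SE 0.24). The 5 members with both KO libraries above both WT libraries were Mrpl32, Mrpl13, Mrpl54, Mrpl34 and Mrpl48, named after their values were seen, and in Mrpl34 the nearest libraries had 40.38 CPM in KO and 40.37 CPM in WT.

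**Figure D3:**
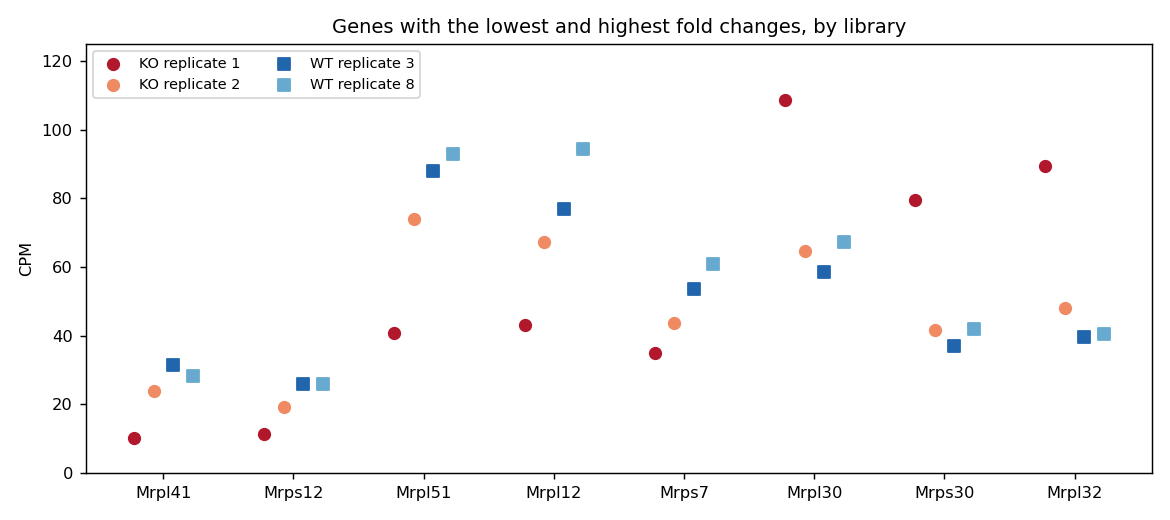
CPM in each library (y axis, from 0) for 5 genes with low and 3 with high fold changes, KO as circles and WT as squares. Mrpl41, Mrps12, Mrpl51, Mrpl12 and Mrps7 have both KO libraries below both WT libraries, while for Mrpl30 and Mrps30 only KO replicate 1 stands above WT.

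The promoters of Mrpl32, Mrps12 and Mrpl51 are shown because Mrpl32 had the highest fold change of all members and the others were among the lowest 3. Each window runs from 250 bases before to 50 bases after the RefSeq start on GRCm38.p6, 5′ to 3′ on the gene's strand (chr13:14612988-14613287 minus, chr7:28741772-28742071 minus and chr6:125191950-125192249 plus). Capitals mark matches, on either strand, to the palindromic motif of NRF1 (as capitalised second in Mrpl32, with a free base at its middle), CCGGAAG (the core of ETS factors such as GABPA) or AAGATGGC (YY1), factors known to act on nuclear genes for mitochondrial proteins.
Mrpl32: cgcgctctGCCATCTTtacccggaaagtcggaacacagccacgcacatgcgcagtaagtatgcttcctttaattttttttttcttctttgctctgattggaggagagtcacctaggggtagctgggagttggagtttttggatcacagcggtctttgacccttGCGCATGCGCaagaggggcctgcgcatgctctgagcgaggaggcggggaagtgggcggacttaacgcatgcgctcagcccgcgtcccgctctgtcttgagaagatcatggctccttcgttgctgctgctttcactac
Mrps12: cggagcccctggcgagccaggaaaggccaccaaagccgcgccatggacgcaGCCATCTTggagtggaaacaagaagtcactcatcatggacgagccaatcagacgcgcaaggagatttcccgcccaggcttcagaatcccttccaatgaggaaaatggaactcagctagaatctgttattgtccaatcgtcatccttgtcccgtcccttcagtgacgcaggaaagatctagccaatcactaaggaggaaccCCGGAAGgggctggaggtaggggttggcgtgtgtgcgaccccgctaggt
Mrpl51: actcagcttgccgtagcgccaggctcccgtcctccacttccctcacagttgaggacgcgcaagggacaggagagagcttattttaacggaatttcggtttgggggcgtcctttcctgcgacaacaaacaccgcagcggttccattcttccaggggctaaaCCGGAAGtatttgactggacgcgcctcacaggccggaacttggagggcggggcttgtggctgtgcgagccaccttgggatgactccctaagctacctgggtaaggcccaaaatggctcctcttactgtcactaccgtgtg

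Promoter windows were found for 65 of the 74 genes. The ETS core CCGGAAG was in a window of 24 of the 65 (36.9%), against 22.3% of the 7286 genes of the table with a window and 9.93% of all 27025 genes with one. The NRF1 motif was in 12 members (18.5%, against 13.1% and 5.19%), AAGATGGC in 10 (15.4%, against 5.93% and 3.19%) and the motif of THAP11 in 4 (6.15%, against 5.48% and 2.08%). Both strands were searched, and a match to CCGGAAG can share its last letters with one to AAGATGGC. Mrpl32 and Mrps12, at opposite ends of the fold changes, both held the YY1 letters. The median log2 fold change was -0.33 in members with AAGATGGC and -0.16 in the other members with a window. It was -0.24 and -0.19 for CCGGAAG, -0.12 and -0.21 for the NRF1 motif and -0.12 and -0.21 for that of THAP11. These differences were not tested. A match is a description of the letters and not evidence of binding.

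The KO libraries differed in how far they lay from WT. Over the members the median difference from the WT mean was -0.25 log2 CPM in KO replicate 1 and -0.15 in KO replicate 2, beside -0.07 in WT replicate 3 and 0.07 in WT replicate 8. KO replicate 1 was the farther of the KO libraries in 59 of the 74 genes. Within a group the median SD of a member was 0.19 log2 CPM in KO and 0.11 in WT.

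The count of calls rested on KO replicate 2. Without it, edgeR's quasi-likelihood test called 20 members lower (27.0%, against 15.3% of all genes) and 3 higher (4.05%, against 17.3%), where a lone KO library is assumed to vary like the WT libraries. The 3 higher were Mrpl32, Mrps30 and Mrpl30, and the lowest were Mrpl41 (log2 fold change -1.57, SE 0.22), Mrps12 (-1.21, SE 0.21) and Mrpl51 (-1.16, SE 0.18). Without KO replicate 1, 0 members were called, against 1.29% of all genes higher and 0.0467% lower. It was also 0 without WT replicate 3 (0.373% and 0.00933%) and without WT replicate 8 (0.233% and 0.0187%). The library in question, KO replicate 1, also had the highest neutrophil and megakaryocyte marker sums and the lowest median of erythroid markers relative to WT. The part of these markers was not tested. KO replicate 2 was the one library nearly without Y-linked counts: Eif2s3y had 3244 and 0 counts in KO and 1990 and 3768 counts in WT. The part of sex in the dependence on KO replicate 2 was not tested.

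The subunits differed little from each other. Summed over their genes, Mrpl transcripts had 1682 and 1743 CPM in KO and 1839 and 2029 CPM in WT, means of 1713 ± 43.1 CPM and 1934 ± 134 CPM (SD, n = 2 each). Mrps transcripts had 844 and 871 CPM in KO and 912 and 1010 CPM in WT, means of 858 ± 19.1 CPM and 961 ± 69.4 CPM. For both subunits each KO library lay below each WT library, with a ratio of the group means of 0.886 for Mrpl and 0.892 for Mrps genes.

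The summed Mrpl level over the summed Mrps level was 1.992 and 2.001 in KO and 2.016 and 2.008 in WT. Both KO ratios lay below both WT ratios, but the nearest KO and WT libraries were closer to each other than the libraries within either group. With 2 libraries each an exact two-sided permutation test cannot go below p = 0.333. The median log2 fold change was -0.19 for Mrpl and -0.14 for Mrps genes, a difference of -0.05, and without WT replicate 8 that difference was 0.06. Both KO libraries lay below both WT libraries in 24 of 45 Mrpl genes (53.3%) and 14 of 29 Mrps genes (48.3%), against 26.7% of all genes. All 5 genes with both KO libraries above were Mrpl genes (11.1% of the 45, against 27.4% of all genes).

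**Figure D4:**
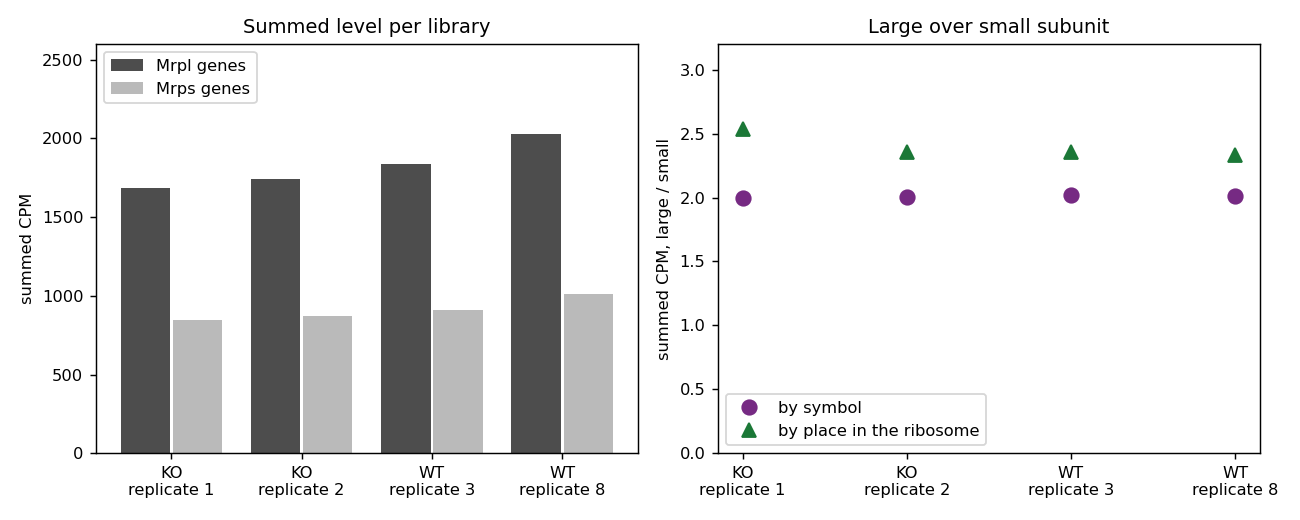
Left, summed CPM of the 45 Mrpl and the 29 Mrps genes in each library, with bars from 0. Right, the ratio of large to small subunit sums per library, by symbol (circles, 1.992 to 2.016) and by place in the ribosome (triangles, 2.33 to 2.53), where KO replicate 1 stands above the others.

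Symbols and places in the ribosome do not always match. Mrps18a and Mrps30 belong to the large subunit, and Mrps36 is a component of the 2-oxoglutarate dehydrogenase complex. Mrps18a had 20.1 and 25.2 CPM in KO and 25.2 and 26.7 CPM in WT (log2 fold change -0.20, SE 0.22), and Mrps36 had 41.1 and 36.3 CPM in KO and 42.3 and 43.1 CPM in WT (-0.14, SE 0.19). With genes sorted by place, the large over small ratio was 2.53 and 2.36 in KO and 2.35 and 2.33 in WT, so KO replicate 1 stood apart, and the difference between the subunit medians was 0.01. Mrps30 moved from the small to the large sum in that count, with its high value in KO replicate 1.

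Proteins were sorted by systematic name into bacterial homologues and mitochondria-specific ones, and the classes had overlapping fold changes. The classes follow names only: Mrps18a and Mrps18b were placed as mitochondria-specific, although Mrps18c of the same symbol family was placed as a homologue. Among the 47 large-subunit proteins by place, the median log2 fold change was -0.17 for 28 homologues and -0.20 for 19 mitochondria-specific ones. Both KO libraries lay below both WT libraries in 12 of the 28 (42.9%) and 12 of the 19 (63.2%), against 26.7% of all genes. They lay above in 3 of the 28 (10.7%) and 2 of the 19 (10.5%), against 27.4% of all genes. Among the 26 small-subunit proteins 0 had both KO libraries above. The median was -0.11 for 16 homologues, with both KO libraries below in 6 (37.5%). It was -0.33 for 10 mitochondria-specific ones, with both below in 7 (70.0%). The lowest of these 10 was Mrps25, with 17.5 and 22.1 CPM in KO and 25.8 and 30.4 CPM in WT (log2 fold change -0.51, SE 0.23), named after its values were seen. Its annotated exons share 53.7% of their bases with Nr2c2 on the other strand. The strand of the libraries is not stated, so reads of the 2 genes within the shared bases cannot be told apart.

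The ribosomal proteins of the cytosol lay in the other direction. Among 79 cytosolic ribosomal protein genes the median log2 fold change was 0.56, and 0 passed over all genes. Both KO libraries lay above both WT libraries in 58 (73.4%, against 27.4% of all genes) and below them in 6 (7.59%, against 26.7%). The median difference from the WT mean was 0.83 log2 CPM in KO replicate 1 and 0.28 in KO replicate 2. Among 74 genes of nuclear-encoded subunits of the respiratory chain and ATP synthase the median was -0.07, with 15 above (20.3%) and 28 below (37.8%), and 0 passed. The difference between the mitochondrial ribosomal genes and these sets was not tested, since genes are not replicates.

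**Figure D5:**
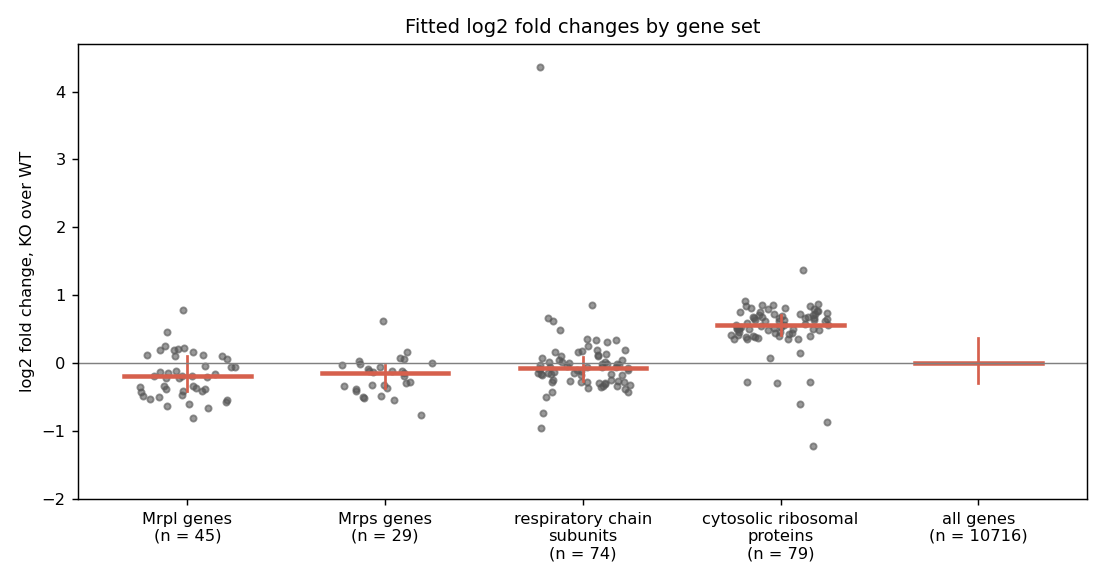
Log2 fold change of KO over WT (y axis) by gene set, with a point for each gene (points omitted for all genes), horizontal lines at the median and vertical lines from the lower to the upper quartile. Medians are -0.19 for Mrpl, -0.14 for Mrps, -0.07 for respiratory chain and 0.56 for cytosolic ribosomal protein genes.

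Subunits of the mitochondrial ribosome that carry other names were close to the rest. There were 7 such genes (Dap3, Ptcd3, Chchd1, Aurkaip1, Ict1, Gadd45gip1 and Mrp63), with a median log2 fold change of -0.17. Both KO libraries lay below both WT libraries in 4 (57.1%, against 26.7% of all genes) and above them in 1 (14.3%, against 27.4%). Ict1, a peptidyl-tRNA hydrolase built into the large subunit, had 15.9 and 17.6 CPM in KO and 22.3 and 21.97 CPM in WT (log2 fold change -0.40, SE 0.21). Dap3, a GTP-binding protein of the small subunit, had 104 and 96.2 CPM in KO and 84.2 and 94.2 CPM in WT (0.16, SE 0.18; chosen after its values were seen).

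Genes that build and serve the mitochondrial ribosome had medians on the same side. For 20 assembly factors the median log2 fold change was -0.19. In 10 of these both KO libraries lay below both WT libraries, against 26.7% of all genes, and in 1 above, against 27.4%. Fastkd2, an RNA-binding protein needed for the large subunit, had 15.1 and 21.6 CPM in KO and 25.1 and 31.3 CPM in WT (-0.62, SE 0.27), and Eral1, a chaperone of the small-subunit RNA, had 46.0 and 25.7 CPM in KO and 18.9 and 23.9 CPM in WT (0.75, SE 0.33; chosen after its values were seen). For 14 translation factors the median was -0.23, with 9 below (64.3%, against 26.7% of all genes) and 1 above (7.14%, against 27.4%). The elongation factor gene Gfm1 had 59.2 and 69.3 CPM in KO and 76.6 and 88.8 CPM in WT (-0.36, SE 0.19).

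For 17 genes of mitochondrial DNA maintenance and transcription the median was -0.28, with 9 below (52.9%) and 4 above (23.5%). Over all genes 26.7% lay below and 27.4% above. Tbrg4, which acts on mitochondrial RNA, had 51.6 and 73.3 CPM in KO and 85.0 and 104 CPM in WT (log2 fold change -0.60, SE 0.24, edgeR adjusted p = 0.419). For 14 mitochondrial chaperones and proteases the median was 0.02, with 4 below and 4 above (28.6% each), near the shares of all genes. The protease gene Lonp1 had 296 and 184 CPM in KO and 129 and 159 CPM in WT (0.73, SE 0.28, edgeR adjusted p = 0.419). For 13 regulators of mitochondrial biogenesis the median was 0.02, with 3 below (23.1%) and 0 above (0%). Pprc1, a coactivator of the PGC-1 family, had 63.0 and 78.8 CPM in KO and 94.2 and 105 CPM in WT (-0.49, SE 0.20).

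Of the 85 genes of these 6 lists 0 passed in edgeR's quasi-likelihood test, and the same held for the other tools. Tbrg4, lower in KO, and Lonp1, higher in KO, were the 2 with an unadjusted p below 0.05 in edgeR's quasi-likelihood test. Of all genes, 2.08% were lower and 9.82% higher at that cut. Without KO replicate 2, 28 of the 85 were called, 20 lower (23.5%, against 15.3% of all genes) and 8 higher (9.41%, against 17.3%). The gene table held 0 genes encoded by mitochondrial DNA, and such genes were not analysed here.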

How the data were processed

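Per the file headers, the authors deposited raw counts per gene for 4 libraries in a table of 10716 genes, and beside them a p-value and an adjusted one for each gene. TopHat2 2.0.8, HTSeq and Trimmomatic 0.30 are among the tools listed, per the submitters' processing notes, and mm9 and NCBIM37 are the builds. The role of each, the strand and the treatment of reads shared between genes are not given in the sources used here. All 10716 genes exceeded 1 CPM in at least 2 libraries, so lower genes cannot be seen. The smallest count of a member in a library was 133.

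Counts were fitted in edgeR 4.0.16 under R 4.3.3 (filterByExpr, which removed 0 genes, TMM, estimateDisp, glmQLFit with robust=TRUE and legacy=TRUE, two-sided quasi-likelihood F test, 2 residual degrees of freedom), with a threshold of 0.05 for the adjusted p. The SE is the absolute log2 fold change divided by the square root of F. CPM are of the TMM-scaled library, and log2 CPM used a prior count of 2. Differences are KO over WT. The code was tested on simulated data.

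The members and lists were chosen with earlier results of these data known. Named genes are the 8 members with the highest and the 8 with the lowest fold changes, the extremes of level per length in each subunit, Mrps18a, Mrps30, Mrps36, Adar, any member called or with a group SD above 1 log2 CPM (0 of either) and, per list, the gene called or with the smallest p. Exon lengths came from GENCODE vM1 on NCBIM37, promoters from RefSeq on GRCm38.p6. Genes matching the cytosolic pattern but encoding S6 kinases, and assembly factors matching the respiratory chain pattern, were left out. Alternatives were RLE or no scaling, no or a stricter filter, DESeq2 1.42.0, limma-voom (limma 3.58.1), the likelihood ratio test, robust=FALSE, legacy=FALSE, each library left out and subunits by place.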

Additional observations from a re-analysis of the deposited data

How the results depend on the processing

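No paired analysis was possible because the groups share no replicate number. The median log2 fold change of the 74 genes ran from -0.27 to -0.12 over all alternatives, beside an all-gene median of -0.07 without library scaling, where it was -0.26. The count of called members was 0 under every alternative except without KO replicate 2, so leaving out a library gave 0 to 23, and for the 85 genes of the other lists 0 to 28. The difference between the medians of the subunits (-0.05) was -0.0478 without scaling, -0.06 with limma-voom, 0.0082 with subunits by place and -0.0691 to 0.0599 with a library left out. By place, the large over small ratio was 2.53 in KO replicate 1, 2.36 in KO replicate 2, 2.35 in WT replicate 3 and 2.33 in WT replicate 8.

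In alternatives added after seeing the data, the 38 genes with both KO libraries below WT were 42 with RLE scaling (27.8% of all genes) and 33 without scaling (28.5%). They were 46 without KO replicate 1 (35.3% of all genes), 47 without KO replicate 2 (44.1%), 57 without WT replicate 3 (36.0%) and 39 without WT replicate 8 (39.0%). The 5 genes above were 3 with RLE scaling (26.5% of all genes) and 1 without scaling (22.4%). They were 7 without KO replicate 1 (34.7% of all genes), 14 without KO replicate 2 (44.3%), 5 without WT replicate 3 (34.7%) and 19 without WT replicate 8 (39.9%). Fold changes near 0 changed sign without scaling for Mrps28 (-0.0524) and Mrps16 (-0.0017). With a library left out, they ran from -0.012 (without KO replicate 1) to 0.352 for Mrpl1, -0.12 (without WT replicate 3) to 0.177 for Mrps28, -0.156 (without WT replicate 3) to 0.356 for Mrps16, -0.21 to 0.111 (without WT replicate 8) for Mrps10 and -0.189 to 0.156 (without WT replicate 8) for Mrps6. The causes were not tested.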

Other observations

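Mitochondrial ribosomal protein genes often start back to back with another gene. On NCBIM37, 24 of the 74 (32.4%) had a coding gene on the other strand that starts within 1000 bases upstream and runs away from it, against 16.6% of the 9310 coding genes of the table. With each pair counted once, 21 pairs had both genes in the table, and the log2 fold change was below 0 for both genes in 10, above 0 for both in 3 and of opposite sign in 8. Mrps12 starts 171 bases from Sars2, the mitochondrial seryl-tRNA synthetase gene, which had 13.9 and 13.8 CPM in KO and 17.1 and 19.4 CPM in WT (log2 fold change -0.39, SE 0.22). Mrpl46 and Mrps11, 53 bases apart, are members both, with log2 fold changes of -0.42 (SE 0.24) and -0.33 (SE 0.21), and 173 of their exon bases overlap. Mrpl43 starts 116 bases from Peo1, the gene of the mitochondrial DNA helicase Twinkle, which had 12.9 and 24.7 CPM in KO and 24.0 and 31.6 CPM in WT (-0.56, SE 0.36). Mrpl30 starts 66 bases from Mitd1, which had 34.3 and 21.6 CPM in KO and 16.1 and 18.7 CPM in WT (0.68, SE 0.29). Mrpl32 (0.78) starts 217 bases from the proteasome gene Psma2, which had -0.08 (SE 0.18). Mrpl41 (-0.81) starts 935 bases from Pnpla7, which had 93.7 and 64.7 CPM in KO and 49.8 and 46.3 CPM in WT (0.72, SE 0.24). The pairs named here were not picked by a rule set beforehand.

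Exons of 26 members overlap those of another gene, and in 9 of them over 20% of the exon bases do, among them Mrpl53 (87.1%), Mrps34 (77.8%) and Mrps6 (43.8%). Across the 74 genes the log2 fold change had a Spearman correlation of 0.12 with exon length and -0.13 with GC content, beside 0.05 and -0.06 over the 9310 genes with both values, where all genes share the same libraries.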
